A study of Mus musculus with 8 samples.

Results

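The clustered protocadherin genes are 57 protein-coding genes on mouse chromosome 18 that lie next to each other in an alpha cluster of 14 genes, a beta cluster of 22 and a gamma cluster of 21. They were chosen by symbol (Pcdha, Pcdhb or Pcdhg) from the RefSeq gene table of GRCm38.p6, the assembly also called mm10. They are 57 of the 21887 protein-coding genes on chromosomes 1 to 19, X and Y, and of the 511 on chromosome 18. From the first base of Pcdha1 to the last base of the gamma genes they span chromosome 18, 36930285 to 37841873, which is 912 kb. The assay was ATAC-seq, in which a transposase cuts and tags open chromatin, and the cells were MIN6, a beta cell line from a mouse insulinoma. The labels give its genotype as wild type. Cells were lipid-transfected for 48 hours with either the plasmid pGloMyc-Klf4, which expresses the zinc finger transcription factor Klf4, or the empty vector pcDNA 3. Each plasmid has 4 biological replicates, 8 libraries in all, and the values used here are 2 lists of accessible regions (peaks), 1 per plasmid and merged over its libraries. Each group thus has 1 value for every measure, there is no spread between replicates, no difference between the plasmids could be tested, and the read depth is unknown. The share of cells that took up a plasmid is not given in the sources used here, and 1 cell line stands for the beta cell.

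Clustered protocadherins are cell adhesion molecules of the cadherin superfamily, best known from neurons, where each cell uses a small choice of them and so carries its own surface identity. Every alpha and gamma gene has its own promoter and a large first (variable) exon, which is spliced to constant exons shared by the whole cluster, while beta genes have no constant exons. The last genes of the alpha and gamma clusters, the C-type genes Pcdhac1, Pcdhac2, Pcdhgc3, Pcdhgc4 and Pcdhgc5, are regulated apart from the other members. Choice of a promoter involves the insulator protein CTCF, cohesin, DNA methylation and distant enhancers. The geometry of the gene table follows this layout. The alpha genes have 14 different low ends and high ends within 1240 bp of each other, and the gamma genes have 21 different low ends and high ends within 10 bp. Beta genes are 2340 to 5271 bp long and do not overlap. The low end of each gene is used as its start below. The gene table gives no strand, and for the beta genes this rests on the background knowledge that the clusters are transcribed in the same direction.

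The clusters differed in whether their gene starts were accessible. In both lists, all 14 alpha genes had a peak within 1 kb of the start. Of the 22 beta genes 21 had one with the empty vector, and all 22 had one with Klf4. Of the 21 gamma genes 3 had a start peak in each list, and they were the same genes, Pcdhgb1, Pcdhgc3 and Pcdhgc4. With a 95% Wilson interval over genes, the gamma share was 14.3% (4.98 to 34.6%), the alpha share 100% (78.5 to 100%) and the beta share 95.5% (78.2 to 99.2%) with the empty vector and 100% (85.1 to 100%) with Klf4. These intervals cover counting error only. Among 17492 protein-coding genes of known strand on the other chromosomes, 61.1% had an empty vector peak at the start and 67.7% a Klf4 peak. The alpha and beta shares were above this background and the gamma share below it. Members are neighbours within 1 locus and were read in the same libraries, so these shares are descriptions and were not tested.

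**Figure D1:**
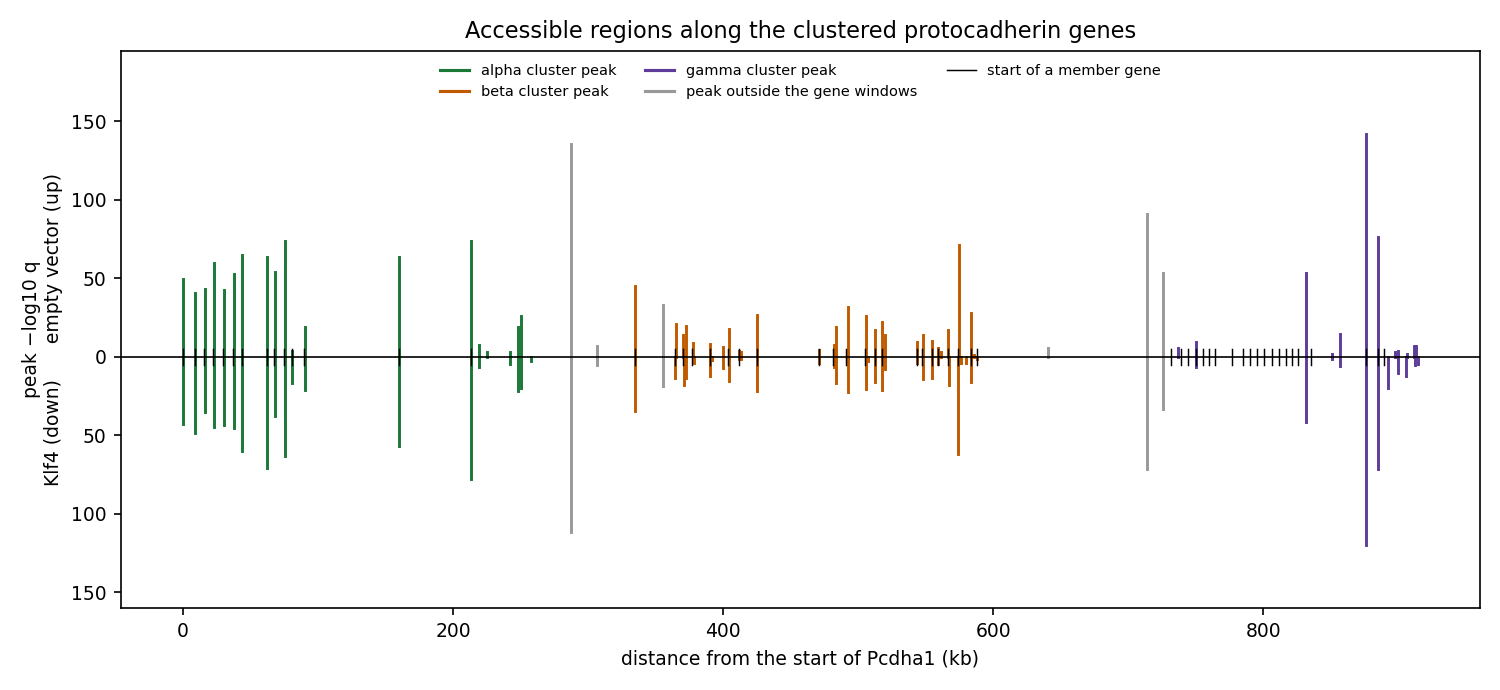
Peaks along the clustered protocadherin genes, with the distance from the start of Pcdha1 in kb on the x axis and the −log10 q of each peak on the y axis (empty vector upward, Klf4 downward). Grey lines are peaks of the locus outside the gene windows and short black ticks mark the 57 gene starts, and peaks stand at nearly every alpha and beta start while most gamma starts have none.

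Of the 14 alpha start peaks, those of Pcdha11 and Pcdha12 stood below all others in both lists. A peak's −log10 q is the peak caller's significance for that peak. It depends on depth and was deposited once per list, so values of the lists are given side by side and not as a difference. At Pcdha1 it was 49.6 (empty vector) and 42.8 (Klf4), and pairs of values keep this order below. Pcdha2 had 40.5 and 48.5, and Pcdha3 43.4 and 34.9. At Pcdha4 it was 59.996 and 44.5, at Pcdha5 42.5 and 43.8, and at Pcdha6 52.6 and 45.3. Pcdha7 had 65.1 and 60.3, and Pcdha9 53.9 and 37.5. At Pcdha10, the highest of the numbered alpha genes with the empty vector, it was 73.9 and 63.2. Pcdha8 was the highest of them in the Klf4 list. From Pcdha1 to Pcdha10 every start peak lay between 40.5 and 73.9 with the empty vector and between 34.9 and 70.6 with Klf4. Of the next 2 genes Pcdha11 had 3.59 and 16.4, in peaks of 188 and 230 bp that began after the start. Pcdha12 had 18.7 and 20.96. Of the C-type genes of this cluster, Pcdhac1 starts 69.9 kb past the Pcdha12 start, and Pcdhac2 a further 53.5 kb past the Pcdhac1 start. Both were again strong, Pcdhac1 with 63.6 and 57.2 and Pcdhac2 with 73.8 and 78.2. The fold enrichment over the local background, also given by the peak caller, ranged over the 14 alpha start peaks from 3.43 to 11.4 with the empty vector (median 8.74) and from 7.04 to 10.8 with Klf4 (median 8.73).

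The beta start peaks were weaker. Their median −log10 q was 16.9 with the empty vector (range 3.37 to 71.0) and 14.8 with Klf4 (1.51 to 62.1), against 53.3 and 44.9 for the alpha genes. For all other genes with a start peak, on chromosomes other than 18, the medians were 75.9 and 56.3, above both clusters. Of the beta start peaks 8 of 21 reached a −log10 q of 20 with the empty vector and 6 of 22 with Klf4, while 12 and 13 of the 14 alpha peaks did, against 82.8% and 76.4% of start peaks on the other chromosomes. The beta shares were below this background, and the alpha share with the empty vector was near it. Pcdhb20 stood out at 71.0 and 62.1, with fold enrichments of 12.0 and 12.6, the highest of all member start peaks in either list. Pcdhb1, at the edge of the cluster, followed with 44.9 and 34.8. Pcdhb2 had 20.6 and 13.8, and Pcdhb8 26.3 and 21.6. Near the middle of the group lay Pcdhb6 (17.8 and 15.4), Pcdhb13 (17.1 and 16.1), Pcdhb16 (13.6 and 14.2) and Pcdhb19 (16.9 and 17.9). Pcdhb15 (9.63 and 4.17) and Pcdhb17 (9.81 and 13.5) were lower with the empty vector. The lowest with the empty vector were Pcdhb7 (3.37 and 1.69) and Pcdhb9 (4.23 and 4.195), and in the Klf4 list Pcdhb15 lay just below Pcdhb9. Pcdhb22, the last beta gene, had no start peak in the empty vector list, and its Klf4 peak was weak and 197 bp wide (−log10 q 1.51). Its nearest empty vector peak was 2333 bp away. The weak values of this group lie close to the limit of what the lists contain, so a difference between the plasmids at Pcdhb22 could not be detected.

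Of the gamma genes, Pcdhgc3 had the strongest peak of all members in both lists, with a −log10 q of 142 and 119.8. Next within this cluster was Pcdhgc4 with 76.1 and 71.8, which lay below Pcdhac2 in the Klf4 list. Pcdhgb1 had a short peak of 379 and 329 bp with 9.09 and 6.33. The third C-type gene, Pcdhgc5, had no start peak in either list. All 12 Pcdhga genes and the other 5 protein-coding Pcdhgb genes had none either. These 18 genes were the only members without a start peak in both lists, and their starts lay a median of 11.8 kb from the nearest empty vector peak (1.63 to 39.8 kb) and 12.6 kb from the nearest Klf4 peak (2.94 to 39.8 kb). Between Pcdhgb1 and the pseudogene Pcdhgb8 a stretch of 80.7 kb, chromosome 18, 37680564 to 37761306, held no peak of either list although 13 gamma genes start in it, from Pcdhga4 to Pcdhga11. It was the longest stretch without a peak in the 912 kb. The next 3, of 72.8, 68.5 and 52.7 kb, held no start of a member, and Slc25a2, a gene between the beta and gamma clusters, lies in the first of them. Pcdhgb8 itself, a transcribed pseudogene and so no member, had a strong peak over its start in both lists, chromosome 18, 37761307 to 37762341 with the empty vector (−log10 q 53.7) and 37761316 to 37762341 with Klf4 (41.6).

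**Figure D2:**
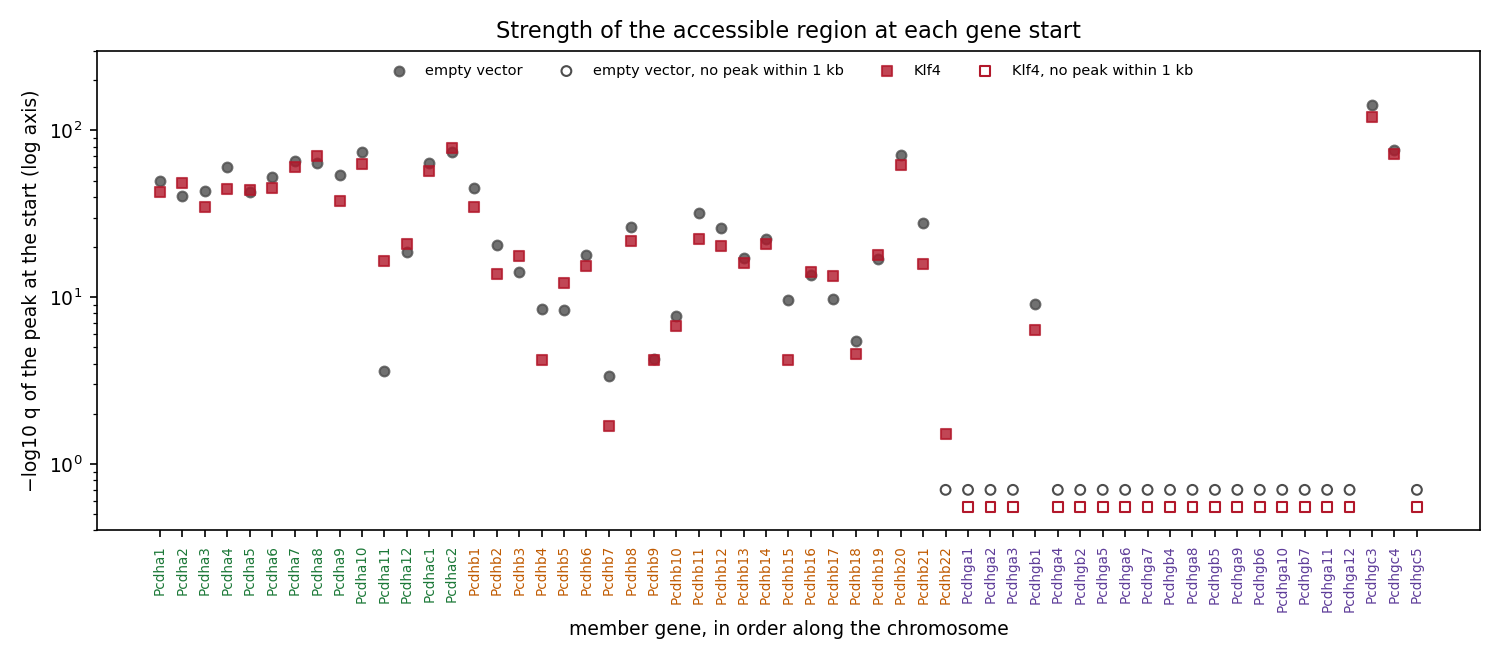
Strength of the peak within 1 kb of each gene start, with the 57 members in chromosome order on the x axis and −log10 q on a logarithmic y axis. Filled circles are the empty vector list, filled squares the Klf4 list and open symbols at the bottom genes with no such peak, which are Pcdhb22 with the empty vector and 18 gamma genes in both lists.

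The order of the members was similar in the lists. Over the 38 genes with a start peak in both, Spearman's rho of −log10 q was 0.94, and it was 0.82 over the 14 alpha genes and 0.91 over 21 beta genes. These values describe the lists only, since the points share a locus and a peak caller and gene starts of like sequence. Protocadherin exons are similar to each other within a cluster, and how the authors placed reads that match several of them is not given in the sources used here. Its part in the presence or absence of a peak was not tested.

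Most start peaks were centred just inside the gene. Of the alpha start peaks 13 of 14 were centred downstream of the start, that is inside the variable exon, with a median offset of 254 bp (empty vector) and 242 bp (Klf4). The exception was Pcdhac1, whose peak was centred before the start, at −177 bp (empty vector) and −184.5 bp (Klf4). Beta peaks had median offsets of 154 and 161 bp, with 19 of 21 and 21 of 22 centred downstream, and the peaks of Pcdhgc3, Pcdhgc4 and Pcdhgb1 lay between −4.5 and 127 bp. For genes on the other chromosomes the median offset was 138 bp with the empty vector (quartiles −33.5 and 349.5 bp) and 156.5 bp with Klf4, and 70.7% and 72.3% of their peaks were centred downstream. Median widths were 962.5 and 950.5 bp at alpha starts and 784 and 668 bp at beta starts, against 1124 and 1139 bp at starts elsewhere.

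Some beta genes had a further peak inside the gene. It was centred 1564.5 to 2353.5 bp past the start in all 9 beta genes that had one in either list. Pcdhb3, Pcdhb7, Pcdhb10 and Pcdhb14 had it in both lists. At Pcdhb3 its −log10 q was 19.7 with the empty vector and 13.3 with Klf4. At Pcdhb10 it was 19.2 and 16.6, above the start peak of that gene (7.73 and 6.70). At Pcdhb14 it was 13.9 and 7.59, and at Pcdhb7 it was weak, with 3.06 and 1.44. Pcdhb18 and Pcdhb21 had such a peak with the empty vector only, and Pcdhb5, Pcdhb12 and Pcdhb20 with Klf4 only. Peaks of this kind found in 1 list were thus 2 of 6 and 3 of 7, against 18.8% and 36.7% of all peaks, and were weak, with a −log10 q of at most 3.99. A peak centred 1500 to 2500 bp past the start, a range set from these peaks, was present at 27.3% and 31.8% of beta genes, against 4.88% and 6.49% of the genes of known strand on other chromosomes. Since the range was chosen from the beta values, nothing is read from this difference. At Pcdhb11 the start peak itself was 2377 bp (empty vector) and 2478 bp (Klf4) wide and so covered both places. At Pcdhb4 the peak was 984 bp wide with the empty vector (−log10 q 8.52) and 2530 bp with Klf4 (4.21). A peak within 1 kb of the high end was present at 3 of 22 beta genes in each list, against 21 and 22 at the low end.

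**Figure D3:**
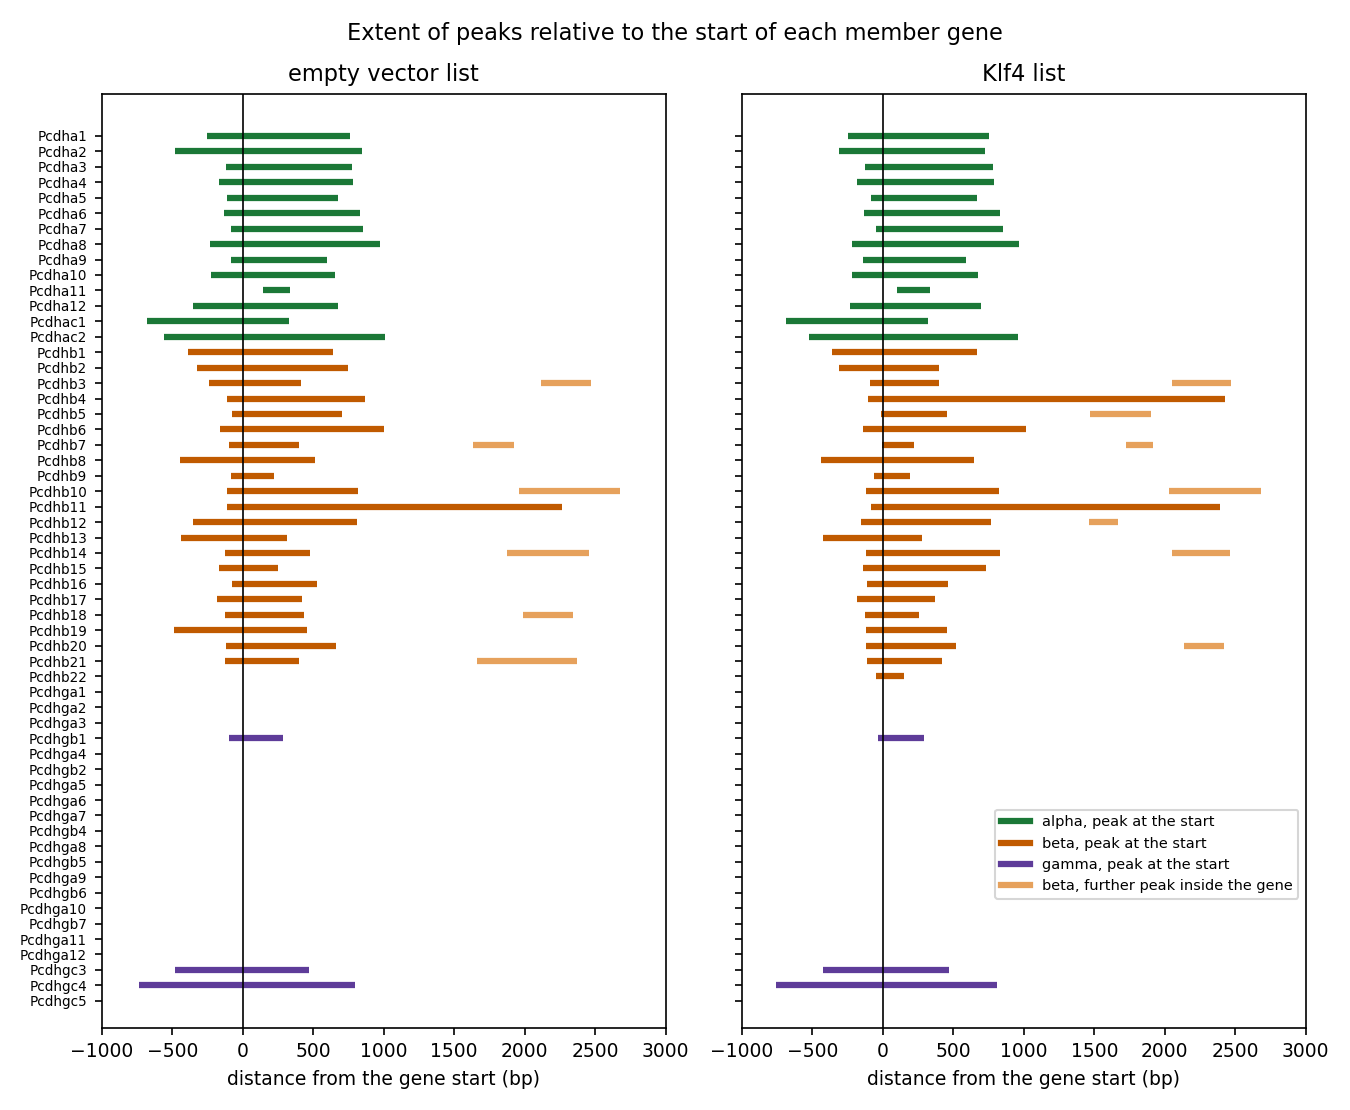
Extent of the peaks at each member, 1 row per gene in chromosome order, with the distance from the gene start in bp on the x axis, for the empty vector list (left) and the Klf4 list (right). Dark bars are the strongest peak within 1 kb of the start and light bars the further peaks inside beta genes, centred 1564.5 to 2353.5 bp past the start.

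Over the gene bodies with 5 kb on both sides, each peak counted once, the members had 59 peaks with the empty vector and 61 with Klf4. The alpha windows (269 kb) held 19 and 19, the beta windows (203 kb) 28 and 31, and the gamma windows (190 kb) 12 and 11. Peaks covered 5.85% of the alpha windows with the empty vector and 5.61% with Klf4, 10.4% and 10.6% of the beta windows, and 4.50% and 4.79% of the gamma windows. In the windows of all protein-coding genes together the covered share was 3.79% and 4.87%. Start peaks made up 38 of the 59 and 39 of the 61. Beyond the starts, the alpha cluster had 5 peaks in each list, all past the Pcdhac2 start. In the Klf4 list the last of them, 37188260 to 37188432 (−log10 q 2.95), lay past the end of Pcdhac2 and had no empty vector counterpart. The strongest were chromosome 18, 37178285 to 37178851 and 37179964 to 37180732 in the empty vector list (−log10 q 18.9 and 26.2), with Klf4 peaks of 21.8 and 19.7 over them.

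The 5 strongest peaks over the members with the empty vector were those of Pcdhgc3 (chromosome 18, 37805929 to 37806882), Pcdhgc4 (37814342 to 37815878), Pcdha10 (37005092 to 37005976), Pcdhac2 (37143118 to 37144684) and Pcdhb20 (37504144 to 37504927). With Klf4 they were those of Pcdhgc3 (37805984 to 37806882), Pcdhac2 (37143155 to 37144634), Pcdhgc4 (37814321 to 37815889), Pcdha8 (36992251 to 36993430) and Pcdha10 (37005099 to 37005993). Of both sets, 4 peaks belong to the same genes.

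The next question was whether Klf4 misexpression went with a different set of accessible regions at these genes. With an overlap of 1 bp or more counted as shared, 8 of the 61 Klf4 peaks (13.1%, interval 6.80 to 23.8%) had no empty vector counterpart, against 36.7% of all Klf4 peaks. Of the 59 empty vector peaks 6 (10.2%, interval 4.74 to 20.5%) had no Klf4 counterpart, against 18.8% of all empty vector peaks. These intervals cover counting error only, and the peaks are neighbours in 1 locus and not independent, so the shares are given beside the background as descriptions. With the Klf4 list reduced to 100099 peaks, as many as in the empty vector list, the shares were 7.41% of the Klf4 and 15.3% of the empty vector member peaks, against 30.3% and 30.2% of all peaks. When a peak counted as shared only with an overlap of at least 50% of both peaks, they were 21.3% and 18.6%, against 47.5% and 32.6% of all peaks. With at least 50% of the peak itself covered, they were 19.7% and 11.9%, against 43.1% and 24.9%. By cluster, the Klf4 list had 1 peak of its own at the alpha genes, 5 at the beta genes and 2 at the gamma genes, and the empty vector list had 1, 2 and 3. Most of these were weak. At a −log10 q of at least 5, 1 of 46 Klf4 member peaks and 2 of 47 empty vector member peaks had no counterpart of any strength in the other list. Of all peaks of that strength 26.8% and 5.09% had none, and the empty vector share was near its background. With the cut applied to both lists, the shares were 8.7% of Klf4 and 10.6% of empty vector member peaks. The shares of all peaks under that cut were not computed. A −log10 q of 20 was reached by 24 of the 59 empty vector member peaks (40.7%) and 23 of the 61 Klf4 ones (37.7%), against 33.2% and 25.5% of the peaks in the windows of all protein-coding genes and 28.8% and 21.8% of all peaks.

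The Klf4 peak with a −log10 q of at least 5 and no counterpart lay inside Pcdhgc5, chromosome 18, 37822489 to 37822932, 2943 bp past the gene start, with a −log10 q of 19.7. Its fold enrichment was 5.86, and it ranked 28470 of 128538 in its list. The nearest empty vector peak to that start was 3668 bp away, on the other side, at Pcdhgc4. Further towards the gamma constant exons both lists had peaks over chromosome 18, 37829592 to 37829785 (empty vector, −log10 q 3.47) and 37829568 to 37830155 (Klf4, 10.4), and over 37836052 to 37836661 (empty vector, 1.71) and 37835518 to 37836508 (Klf4, 11.99). The first of these pairs also lies within the noncoding gene Gm29994. The empty vector list had a peak at 37827853 to 37828160 (2.79) with no Klf4 counterpart, also within Gm29994. From 1 kb past the Pcdhgc5 start to the shared end of the gamma genes, 21.3 kb, peaks covered 1492 bp (empty vector) and 2023 bp (Klf4). Neither list had a peak of 20 or more there.

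The empty vector peaks with a −log10 q of at least 5 and no counterpart both lay at gamma genes. They were chromosome 18, 37667026 to 37667296, 1631 bp before the Pcdhga2 start (−log10 q 5.28), and 37841263 to 37841642 at the shared end of the cluster (6.66). Within the 5 kb flank past the gamma genes, the Klf4 peak at 37844518 to 37844865 (−log10 q 4.84) was counted although it lies inside the neighbouring gene Diaph1. Just outside the 5 kb limit, 5.73 kb before Pcdhga1, both lists had a peak that was not counted, 37655329 to 37656047 with the empty vector (53.3) and 37655333 to 37656029 with Klf4 (33.3).

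The length covered by peaks was almost the same in the lists. It summed to 45255 bp (empty vector) and 45632 bp (Klf4), a ratio of 1.01, while the ratio was 1.29 over the windows of all protein-coding genes. The Klf4 list held 1.28 times as many peaks in all, at unknown depth, and 1.03 times as many at the members. By cluster the covered length was 15715 and 15079 bp at the alpha genes (0.96), 20981 and 21444 bp at the beta genes (1.02), and 8559 and 9109 bp at the gamma genes (1.06). Per gene window, log2((Klf4 bp + 500) / (empty vector bp + 500)) had a median of 0.09 over the 57 members and 0.08 over all 21887 genes, of which 3739 had exactly 0. Among genes with a peak in either list the median was 0.18. With 500 bp added, no member differed by 2-fold or more in either direction, against 8.3% of all genes higher and 0.219% lower with Klf4. This count depends on the added length at 1 gene. The window of Pcdhb4 had 1344 bp (empty vector) and 2950 bp (Klf4), 2.19 times as much with nothing added, 2.11 times with 100 bp added and 1.87 times with 500 bp. With 100 bp added Pcdhb4 was thus the 1 member higher by 2-fold and none was lower, against 12.4% and 1.25% of all genes. When only peaks with a −log10 q of at least 5 were kept, Pcdhb4 was instead lower with Klf4 by 2-fold or more. All 14 alpha values were below 0 (−0.09 to −0.03) and all 21 gamma values above it (0.09 to 0.27), but genes of these clusters share most of their window, so they are not separate measurements. The beta windows are short and vary most, with 11 above and 11 below 0, from −0.56 at Pcdhb18 to 0.90 at Pcdhb4. A covered length says how much was called as a peak and not how high the signal was.

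**Figure D4:**
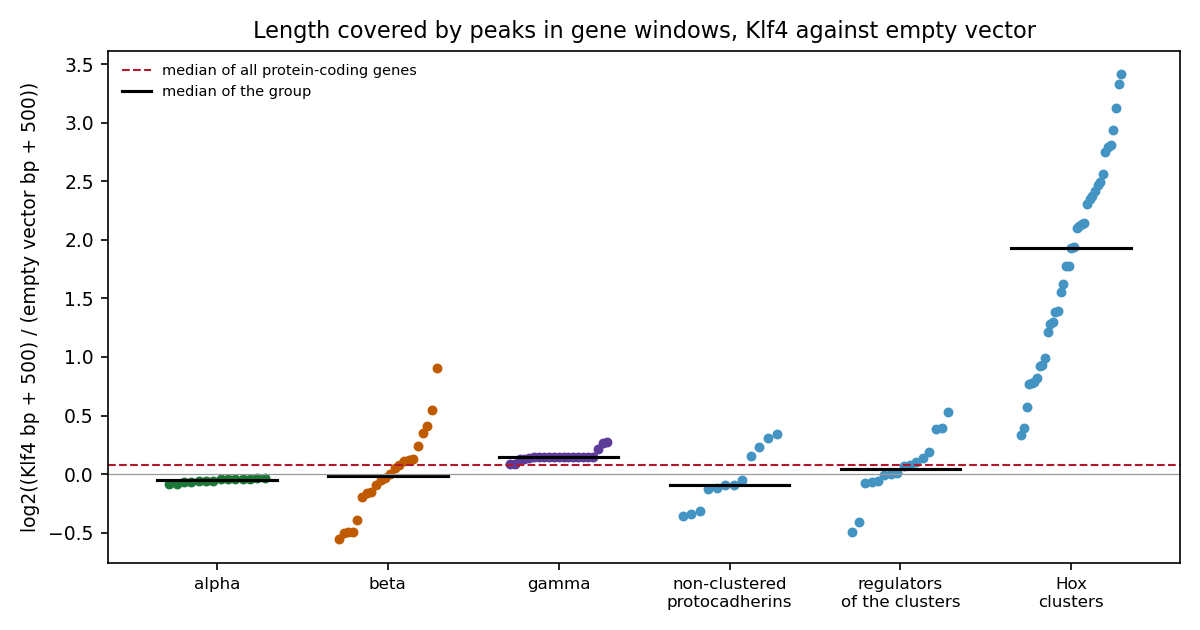
Covered length per gene window as log2 of Klf4 over empty vector, with 500 bp added to both, for the alpha, beta and gamma genes and 3 comparison lists, 1 point per gene. Black bars are group medians and the dashed line the median of all protein-coding genes, 0.08; Hox genes lie above it, and with 500 bp added no protocadherin reaches a 2-fold difference (Pcdhb4 does with 100 bp added).

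Other gene families and the neighbours were read in the same way. The 39 Hox genes, developmental regulators that also sit in tight clusters, had a median log2 ratio of 1.93. All 39 were above 0 and 29 were higher by 2-fold or more with Klf4, against 8.3% of all genes. The window of Hoxc6 had no empty vector peak, and Klf4 peaks covered 4840 bp of it. Of the 22 Hox genes of known strand 3 had an empty vector peak at the start and 18 a Klf4 peak. The gamma genes had a like count with the empty vector, 3 of 21, which was also 3 with Klf4, while nearly all alpha and beta genes had a start peak in both lists. These contrasts were not tested.

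The 12 protocadherins outside the clusters, adhesion molecules with their own single loci, had a median of −0.09, with 4 above and 8 below 0. None differed by 2-fold, against 8.3% of all genes higher and 0.219% lower with Klf4. In a list this short, none is near that share. Of the 9 of known strand 8 had a start peak in each list. Pcdh17 had the strongest with a −log10 q of 107.5 with the empty vector and 45.4 with Klf4. Pcdh9 had no start peak in either list. Among 16 genes for factors known to act on the clusters the median was 0.04, with 9 above and 7 below 0. Again none differed by 2-fold, which is near the share of all genes in a list of 16. Ctcf, the insulator gene, had 4212 and 4471 bp covered. Smchd1, a repressor of clustered genes, had 2032 and 2030 bp. The DNA methyltransferase genes Dnmt3a (13072 and 19100 bp, log2 ratio 0.53), Dnmt1 (5246 and 6996 bp, 0.38) and Dnmt3b (3040 and 3399 bp, 0.14) had more with Klf4. The Dnmt3b value lay below the median of 0.18 among all genes with a peak. Wiz also had more (5545 and 7426 bp, 0.39). Setdb1, a histone methyltransferase gene, had less (2723 and 1790 bp, −0.49), and so had Wapl (2049 and 1414 bp, −0.41). None of these differences could be tested.

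The neighbours of the locus also stayed within 2-fold with 500 bp added, against 8.3% of all genes higher and 0.219% lower with Klf4. Before the alpha cluster, Hars, Hars2 and Zmat2 had log2 ratios of 0.18, 0.16 and 0.16. Between the beta and gamma clusters, Taf7, a general transcription factor gene, had 1 peak in each list (847 and 848 bp) and Slc25a2 had none. After the gamma cluster, Diaph1 had 0.14, Hdac3, a histone deacetylase gene, −0.08 and Rell2 −0.03. The read-through genes Gm37013, Gm38666 and Gm38667 span most of the locus and had values that round to 0.00.

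As a check of the labelled cell type, peaks were looked for within 1 kb of either end of marker genes. All 8 beta cell markers had one with the empty vector and 7 of 8 with Klf4. The exception was Slc2a2, which had no start peak in either list. Its empty vector peak lay at the other gene end, with a −log10 q of 1.82, near the lowest values of the list. Among genes of known strand on the other chromosomes, 61.1% (empty vector) and 67.7% (Klf4) had a peak at the start alone. The share with a peak at either end was not computed, so the marker counts have no matching background. Ins1 had a −log10 q of 81.8 and 61.4, and Pdx1 57.3 and 46.9. All 3 neuronal markers also had a peak in both lists, with 65.97 and 51.1 at Tubb3. Of the other endocrine markers 2 of 5 had an empty vector peak and 4 a Klf4 peak, of the acinar and duct markers 2 and 3 of 4, of the endothelial markers 0 and 1 of 2, of the fibroblast markers 1 of 2 in both, and of the immune markers 1 of 2 in both. Sst, Cpa1, Pecam1, Pdgfra and Ptprc had none with Klf4. The part of other cells in the protocadherin peaks was not tested.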

How the data were processed

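ATAC-seq libraries of MIN6 cells, 4 per plasmid, were aligned with Bowtie2 to mm10 and peaks were called with MACS2, per the submitters' processing notes. DiffBind, also named there, is not used here. Versions, read filters, transposase shift, duplicate handling and the handling of reads with several matches are not given in the sources used here. The authors deposited 2 broad peak lists, described as merged. The lists as deposited by the authors hold a fold enrichment, a ratio of peak signal to local background from the peak caller. The authors also deposited the −log10 p and −log10 q of each peak from the same caller. A score was deposited by the authors and not used further. Broad peaks have no summit, and weak peaks pass more easily at higher depth, so differences between the lists were read from position and covered length, and −log10 q only described and ranked peaks within a list, with both lists' values and orders side by side. The depth is unknown.

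Peaks on chromosomes 1 to 19, X and Y were kept, 100099 with the empty vector and 128538 with Klf4. A window was the gene body with 5 kb on both sides. A start peak overlapped the 1 kb on both sides of a start. For other genes the strand came from the RefSeq promoter table of GRCm38.p6. Named are all members with a start peak, the C-type genes, the 5 strongest peaks per list, list-specific peaks with −log10 q of at least 5, comparison genes differing 2-fold and the neighbours. Further genes of the comparison lists and the weaker peaks inside genes were chosen after their values were seen, and Hox genes past 2-fold are given as a count. Members and lists were chosen with earlier results of these data known. The planned motif counts were not run, since no promoter sequence of a member is used here. The overlap step was tested on real chromosome 18 peaks, some of them moved, and the coverage step base by base on real gene windows. The start peak step was tested on made-up positions. The tools were scipy 1.17.1, statsmodels 0.14.6, pandas 2.3.3, numpy 2.4.6 and matplotlib 3.10.9 in Python 3.11.15.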

Additional observations from a re-analysis of the deposited data

How the results depend on the processing

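No paired analysis was possible because the lists are merged over the libraries of a plasmid. No replicate could be left out either. Of 79 values computed under alternatives, 64 stayed within the limits set for them (1.5 times for a count, the 95% interval for a share, 5% for the covered length ratio, 0.1 for a log2 median), and 15 moved. With the 20000 strongest peaks of each list, the members kept 17 peaks with the empty vector and 17 with Klf4, 16 members had a start peak in each list, and 0% of member peaks were list-specific in either list. That setting keeps strong peaks only. With peaks of at least 500 bp the Klf4 list had 39 member peaks, of which 5.13% were list-specific. For all peaks, the list-specific shares under these filters were not computed, so nothing is read from the member shares. At a −log10 q of at least 5 in both lists the covered length ratio was 0.949 in place of 1.01. It was 0.966 with the 20000 strongest peaks, 0.972 when the Klf4 list was reduced to 100099 peaks and 0.973 with peaks of at least 500 bp, so the side of 1 on which it lay depended on the setting. The ratio over the windows of all protein-coding genes was not computed under these settings. The median log2 ratio over members was −0.0115 with the 20000 strongest peaks and 0 with peaks of at least 500 bp, against 0.09. The alternatives for the count of members differing 2-fold in covered length, 0 in both directions, were chosen after the data were seen. With no flank, with 100 bp added and with peaks of at least 500 bp 1 member was higher with Klf4, each time Pcdhb4. Lower with Klf4 was 1 member with peaks of at least 500 bp (Pcdhb5), 1 at a −log10 q of at least 5 (Pcdhb4) and 1 with the reduced Klf4 list (Pcdhb7). The number of gamma genes with a start peak stayed between 2 and 4 in every setting run. Without replicate values, depth limits every statement on weak peaks.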

Other observations

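Strong accessible regions also lay between and behind the clusters, outside the windows of the member genes. The strongest of those between the first and the last member was found in both lists 28.3 kb past the alpha genes, chromosome 18, 37217184 to 37218466 with the empty vector (1283 bp wide, −log10 q 135.4) and 37217189 to 37218475 with Klf4 (1287 bp, 111.7). Among the members, only the Pcdhgc3 peak was higher (142 and 119.8). A narrow peak of 247 bp (empty vector) and 339 bp (Klf4) stood between Pcdhb1 and Pcdhb2, with a −log10 q of 33.1 and 18.7 and the fold enrichments 10.6 and 7.28. Behind the gamma genes, inside Diaph1, a gene for an actin-organising formin, both lists had peaks 10.1 to 10.2 kb past the gamma end (−log10 q 74.7 and 61.0), 35.3 kb past it (105.5 and 93.5) and 38.1 kb past it (83.6 and 50.95). The beta and gamma clusters are known to be controlled by enhancers behind the gamma genes, and whether these peaks are such elements was not tested. The Klf4 list had 2 further peaks inside Diaph1 with no empty vector counterpart, 14.04 and 81.95 kb past the gamma end (15.8 and 13.7). In the 912 kb of the locus outside the windows, the empty vector list had 6 peaks and the Klf4 list 5, and the peak without a counterpart was 37570571 to 37570906 with the empty vector (5.47).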
